A study of Mus musculus with 27 samples.

Results

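The canonical histone genes are the replication-dependent genes that supply the bulk of the histone protein packaged onto new DNA. The members described here were all genes of the deposited expression table whose name begins with Hist1h, Hist2h, Hist3h or Hist4h, which gave 68 of 24065 genes. They lie in 4 places of the mouse genome, with 54 members in the Hist1 cluster on chromosome 13, 10 in Hist2 on chromosome 3, 3 in Hist3 on chromosome 11 and 1, Hist4h4, on chromosome 6. The histones H2A, H2B, H3 and H4 form the octamer around which DNA is wrapped, and H1 is the linker histone that binds where the DNA enters and leaves it. Of the 68 members, 5 encode H1, 17 H2A, 18 H2B, 12 H3 and 13 H4. The other 3, Hist1h2aa, Hist1h2ba and Hist1h1t, are the testis variants of H2A, H2B and H1, which are made in male germ cells, and they were set apart. The remaining 65 are called somatic below, and 1 of them, Hist3h2bb-ps, is annotated as a transcribed pseudogene.

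Transcripts of canonical histone genes differ from most messenger RNAs in that they end in a short stem-loop instead of a poly(A) tail. Most of the genes have no intron, and their RNA accumulates in S phase, when DNA is replicated. Many H2A and H2B genes stand head to head and share a short promoter. DNMT3B is a de novo DNA methyltransferase that adds methyl groups to CpG sites in the embryo after implantation, and the promoters of germline genes are among its known targets.

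RNA-Seq compared 3 WT and 3 Dnmt3b-/- whole embryos at E8.5, all C57BL/6J littermates from intercrosses of heterozygous mice. The Dnmt3b-/- embryos carry on both chromosomes a catalytically inactive allele, obtained by deleting a floxed part of Dnmt3b (Dnmt3b-2lox) with an ACTB-Cre line, whose promoter is active in most cell types. The WT embryos carry none. Each library came from 1 embryo, and the RNA was depleted of ribosomal RNA without selection for a poly(A) tail, so that RNAs ending in a stem-loop were retained. In bulk RNA, fewer cells in S phase and less histone RNA per cell cannot be told apart.

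The libraries held 41489332 to 58470286 counts on genes, and members took 1.11 to 1.21% of them in WT and 0.664 to 0.795% in Dnmt3b-/- embryos. Dnmt3b itself had 7263, 13956 and 6279.8 normalized counts in WT embryos 1, 2 and 3 and 4062, 4541 and 4740 in Dnmt3b-/- embryos 1, 2 and 3 (2.06-fold lower, edgeR's quasi-likelihood test with Benjamini-Hochberg adjustment, adjusted p = 0.0169). A normalized count is the raw count scaled to the average library, and a gene passed the test at an adjusted p below 0.05. The groups did not overlap, although the count covers the deleted part of the gene together with the rest. In fits that left out 1 embryo the adjusted p reached 0.0613, and it was 0.0621 once the trend on GC content and length described below was removed. All 12 marker genes of the E8.5 embryo had counts in every embryo, with a summed level of 180.04 to 199.96 FPKM in WT and 216 to 258 FPKM in Dnmt3b-/- embryos. The summed FPKM (fragments scaled to exonic length and library depth) of 9 extraembryonic endoderm markers was 176 to 1139 in WT and 111 to 410 in Dnmt3b-/- embryos, and that of 8 erythroid markers was 399 to 2251 and 504 to 1442. The sum of 9 trophoblast and decidua markers was 7.74 to 13.8 and 9.76 to 21.0. The ranges overlapped in these 3 lists but not in that of the E8.5 embryo markers. All 9 extraembryonic endoderm markers had log2 fold changes below 0 (-2.59 to -0.87, median -1.08), and 1 was called lower, as were 18.1% of all tested genes. Medians were -0.33 for erythroid, 0.81 for trophoblast and decidua and 0.34 for E8.5 embryo markers. The trophoblast and decidua genes Tpbpa, Prl3d1, Prl8a2 and Prl2c2 were at 0 in every embryo. The part of these tissues in the results was not tested.

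The stem-loop was searched in the RefSeq sequence of each member (GRCm38.p6, the same assembly as mm10, to which the reads had been aligned) and was found in 66 of 68 members. Hist1h2an and Hist2h2be had no match, and in 64 members the stem-loop stopped within 8 bases of the annotated transcript end. The 8 different versions are shown because they separate the H4 genes from all others. They are written 5′ to 3′ as DNA, with the paired stem in lower case and the 4 bases of the loop in capitals.

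42 members of the H1, H2A, H2B and H3 classes: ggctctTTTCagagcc
9 members of the same classes, Hist1h1t, Hist1h2ba, Hist1h2bb, Hist1h2bk, Hist1h2bl, Hist1h3c, Hist1h3e, Hist1h3f and Hist2h2ab: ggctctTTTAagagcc
8 H4 members, Hist1h4c, Hist1h4d, Hist1h4f, Hist1h4h, Hist1h4k, Hist1h4m, Hist1h4n and Hist4h4: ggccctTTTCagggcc
Hist1h4i and Hist2h4: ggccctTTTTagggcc
Hist1h4b and Hist1h4j: ggtcctTTTCaggacc
Hist1h4a: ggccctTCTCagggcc
Hist1h3g: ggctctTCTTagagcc
Hist2h2ac: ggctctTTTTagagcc

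All 13 H4 members carried a stem opening with ggccct or ggtcct, and all 53 other members with a stem-loop carried ggctct. The testis variants had the same stem as the somatic members of the other classes.

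Promoters of 62 members were given in the RefSeq promoter sequences, from 250 bases before to 50 bases after the start of the transcript. The 5 promoters below are printed 5′ to 3′ along the gene and were chosen for the expression results that follow. Hist1h2aa rose from near 0 in Dnmt3b-/- embryos, Hist1h4k and Hist1h2bg fell, Hist1h4d was the H4 gene with the highest level and fell less, and Hist2h2bb rose. Capitals mark matches on either strand to TATAAA (the TATA box), CCAAT (the CCAAT box) and ATTTGCAT (an octamer motif found in H2B promoters). No motif overlapped another in these sequences.

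Hist1h2aa (chr13:23934187-23934486, plus strand): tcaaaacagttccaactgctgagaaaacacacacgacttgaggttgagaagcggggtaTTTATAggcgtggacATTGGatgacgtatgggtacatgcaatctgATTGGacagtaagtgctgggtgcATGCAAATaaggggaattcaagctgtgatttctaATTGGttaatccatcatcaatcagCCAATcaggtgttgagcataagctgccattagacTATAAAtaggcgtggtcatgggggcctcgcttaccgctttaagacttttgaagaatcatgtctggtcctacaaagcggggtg
Hist1h4k (chr13:21750504-21750803, minus strand): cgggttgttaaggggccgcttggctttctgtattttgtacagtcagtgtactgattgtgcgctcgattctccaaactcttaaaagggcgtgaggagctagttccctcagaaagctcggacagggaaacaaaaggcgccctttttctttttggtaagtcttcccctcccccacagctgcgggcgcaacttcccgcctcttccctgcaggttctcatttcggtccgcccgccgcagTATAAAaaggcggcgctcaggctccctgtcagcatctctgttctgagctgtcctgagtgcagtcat
Hist1h4d (chr13:23581318-23581617, plus strand): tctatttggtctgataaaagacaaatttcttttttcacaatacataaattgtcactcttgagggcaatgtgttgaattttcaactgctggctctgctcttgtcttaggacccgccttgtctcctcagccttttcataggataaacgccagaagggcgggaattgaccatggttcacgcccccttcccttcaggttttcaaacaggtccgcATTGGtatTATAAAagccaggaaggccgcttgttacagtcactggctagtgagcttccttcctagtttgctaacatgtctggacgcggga
Hist1h2bg (chr13:23571150-23571449, plus strand): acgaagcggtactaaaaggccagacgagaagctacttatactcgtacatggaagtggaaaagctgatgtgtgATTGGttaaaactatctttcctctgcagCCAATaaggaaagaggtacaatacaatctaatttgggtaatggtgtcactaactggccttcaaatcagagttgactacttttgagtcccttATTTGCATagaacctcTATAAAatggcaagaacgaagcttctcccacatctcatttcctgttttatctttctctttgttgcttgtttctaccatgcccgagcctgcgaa
Hist2h2bb (chr3:96269450-96269749, plus strand): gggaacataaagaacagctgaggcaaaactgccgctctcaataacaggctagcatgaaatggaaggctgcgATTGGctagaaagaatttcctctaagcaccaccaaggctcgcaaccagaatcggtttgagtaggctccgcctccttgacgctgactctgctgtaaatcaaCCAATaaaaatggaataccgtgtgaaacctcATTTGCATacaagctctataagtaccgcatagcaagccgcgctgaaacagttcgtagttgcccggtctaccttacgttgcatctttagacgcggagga

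CCAAT was present in 50 of 59 somatic promoters (84.75%) and in 37.4% of 32851 promoters of the same length, and TATAAA was in 55.9% and 13.6%. ATTTGCAT was found in 18.6% of the somatic promoters against 1.74% of all, in 6 of 17 H2A and 5 of 15 H2B promoters and in no H1, H3 or H4 promoter. These counts took 1 promoter per gene, the first listed. Promoters of head-to-head genes overlap, as for Hist1h2ah and Hist1h2bk, so that the same site can be counted for both genes. The H2A and H2B counts of each motif are therefore not independent. Hist1h2be has 2 listed, and its second, which was not counted, also holds ATTTGCAT. All H1, H2A, H2B and H3 promoters held CCAAT, and 3 of 12 H4 promoters did. AAACACA, known from H1 promoters, was in 4 of 5 H1 promoters, all 3 testis promoters and 7.18% of all promoters. CACGTG was in none of the 59 and in 7.15% of all, and any of TTTGGCGC, TTTCCCGC, TTTCGCGC and TTTGCCGC, letters bound by E2F factors, was in 16.9% of the 59 and 2.27% of all. These matches describe the letters and not the binding of a factor.

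The first comparison asked whether testis histone genes were active in embryos without DNMT3B activity. Hist1h2ba and Hist1h2aa, the testis H2B and H2A genes, rose from near 0 to a low level, and the third testis gene, Hist1h1t, did not pass the test. A rise was called in 17.6% of all 15114 tested genes, and a rise of more than 2-fold in 2.12%. Hist1h2ba had 0, 0 and 0 raw counts in WT embryos 1, 2 and 3 and 52, 53 and 66 in Dnmt3b-/- embryos 1, 2 and 3. Relative to the 3 counts per library that a value of 0 allows, Hist1h2ba was at least 22.3-fold higher (adjusted p = 0.000976 in edgeR's test). Hist1h2aa had 3, 1 and 0 raw counts in WT and 46, 57 and 58 in Dnmt3b-/- embryos. Its ratio was 48.0 after scaling for depth, with an exact 95% interval of 18.4 to 178 (adjusted p = 0.00121). This interval and the limit of 3 counts cover counting error only. Every Dnmt3b-/- embryo lay above every WT embryo for both genes, as in 25.3% of all tested genes. Both reached the minimum mean of 10 raw counts only through the Dnmt3b-/- embryos, so that a tested gene of this kind had to differ, and neither was tested at a mean of at least 50.

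Hist1h2aa and Hist1h2ba form a head-to-head pair with 281 bases between their starts, and the printed Hist1h2aa promoter covers most of the interval. It holds 8 CpG sites, 4 CCAAT boxes, 2 TATA boxes and 1 octamer motif. Their levels in Dnmt3b-/- embryos were 2.59 ± 0.504 FPKM for Hist1h2aa and 3.02 ± 0.547 FPKM for Hist1h2ba (SD, n = 3). No 75-base stretch of Hist1h2aa, the length of 1 read, occurs elsewhere in the genome, and 29.3% of those of Hist1h2ba do. Hist1h1t, the testis linker histone gene, had 113, 174 and 89.96 normalized counts in WT and 78.9, 129 and 54.2 in Dnmt3b-/- embryos. The groups overlapped (log2 fold change -0.52 ± 0.39 SE, adjusted p = 0.330). The plot of selected genes by embryo shows the 3 testis genes beside 5 somatic members described below.

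**Figure D1:**
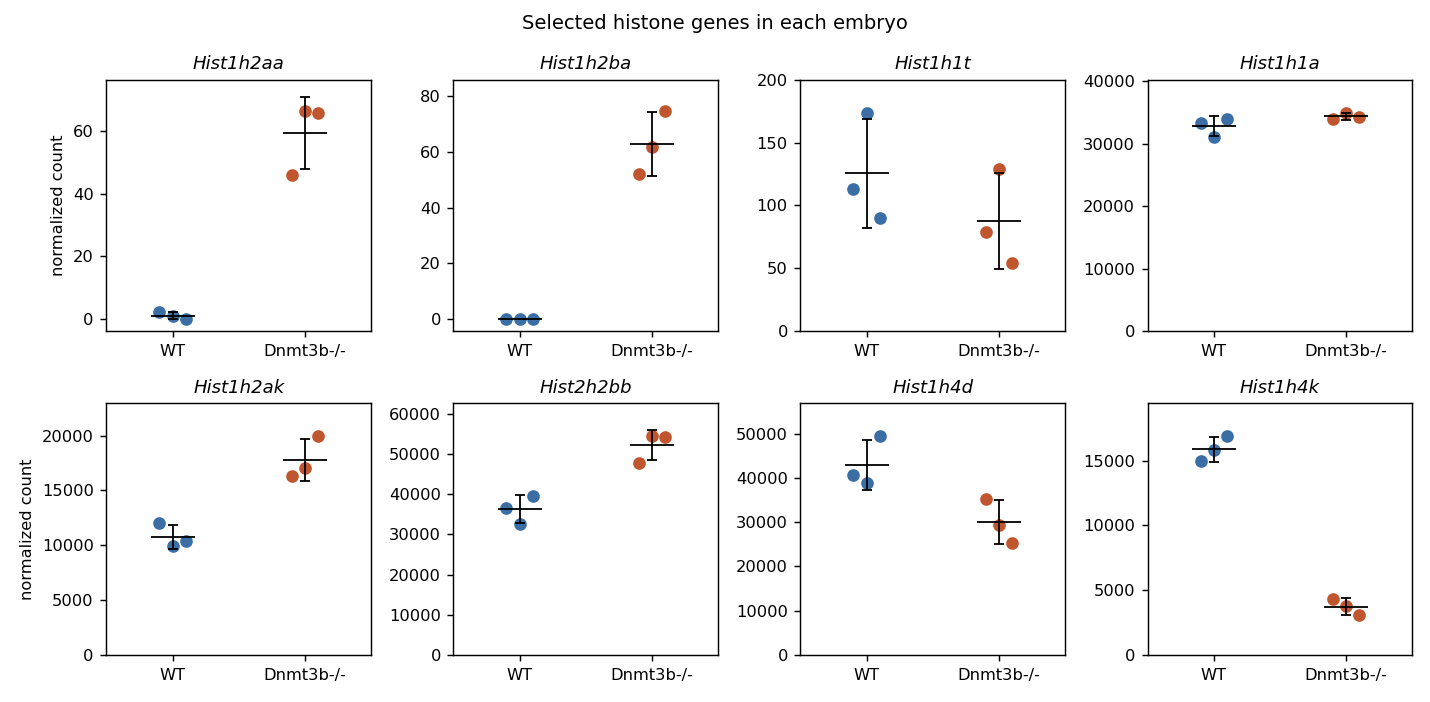
Normalized counts of 8 histone genes in each of 3 WT and 3 Dnmt3b-/- embryos, 1 point per embryo, with the mean and SD as bars. Hist1h2aa and Hist1h2ba lie at 0 to 2.37 in WT embryos and at 45.9 to 74.6 in Dnmt3b-/- embryos, Hist1h2ak and Hist2h2bb are higher, Hist1h4d and Hist1h4k are lower, and Hist1h1t and Hist1h1a overlap between the genotypes.

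The second comparison covered the somatic members. Most of them were lower in Dnmt3b-/- embryos, most strongly the H4 genes. Of 65 somatic members, 55 had a mean of at least 10 raw counts and were tested, and 41 fell while 2 rose, where 18.1% of all tested genes fell and 17.6% rose. A fall of more than 2-fold was found for 20 of the 55 against 3.78% of all tested genes, and no somatic member rose by more than 2-fold, as did 2.12% of all tested genes. The median log2 fold change was -0.84 for the 55 and -0.03 for all tested genes. Every Dnmt3b-/- embryo lay below every WT embryo in 41 of the 55, the same 41 that fell, and in 26.5% of all tested genes. This arrangement rests on the same values as the test and adds no separate evidence. The opposite arrangement was found in 4 somatic members and in 25.3% of all tested genes.

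Across the transcriptome, the change between the genotypes went with GC content. Over 15053 tested genes with a known exonic sequence, the log2 fold change had a Spearman rho of -0.53 with GC content, a description across genes of the same 6 libraries. The tested somatic members had a median GC content of 60.3% against 50.2% for all tested genes, and a median exonic length of 488 against 3626 bases. At 60 to 64% GC, where 27 somatic members lie, the median was -0.64 over all 616 genes and -0.94 over the 27 members on the log2 scale, and 17 of the 27 lay below the median of all. At 56 to 60% GC, 14 of 16 members lay below the median of all genes, which was -0.49. At 64 to 68% GC, none of 3 members did.

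**Figure D2:**
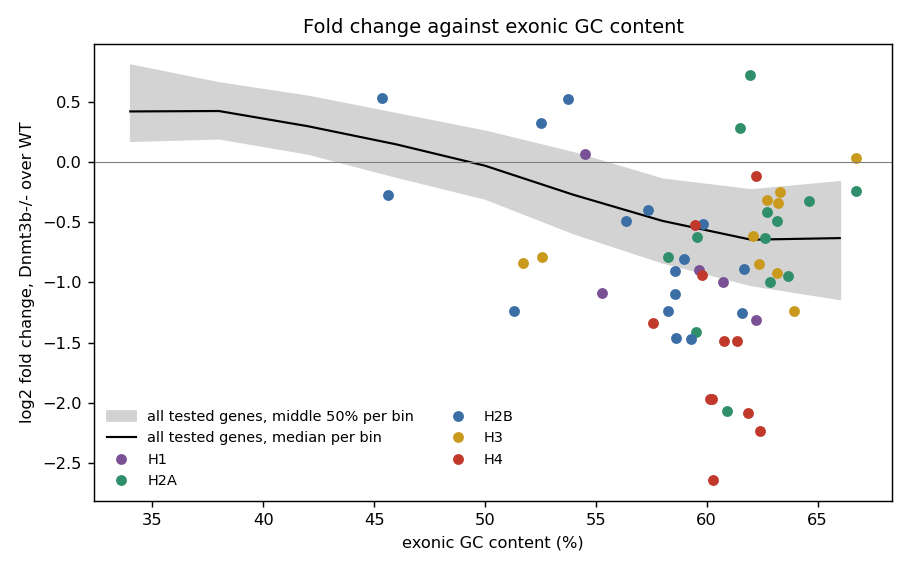
Change between Dnmt3b-/- and WT embryos on the log2 scale against exonic GC content in percent. The line and the grey band show the median and the interquartile range of all tested genes in bins of 4 percentage points, and points are the 55 tested somatic members by class. The line falls from 0.43 at 36 to 40% GC to -0.64 at 60 to 64% GC.

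When a smooth trend on GC content and length was removed from each library, 23 somatic members fell and 12 rose, where 10.8% and 12.6% of all genes did, and the median log2 fold change of the members was -0.21. The 23 were all among the 41, and 3 of the 41 were called higher. The H4 genes kept a median of -0.77 with 8 of 11 lower and 1 higher, H1 a median of -0.35 with 4 of 5 lower and 1 higher, and H2B a median of -0.24 with 7 of 16 lower and 1 higher. H2A and H3 moved to medians of 0.14 and 0.03, with 2 members lower and 5 higher in H2A and 2 lower and 4 higher in H3. The part of GC content and length in the falls was not tested beyond this correction.

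**Figure D3:**
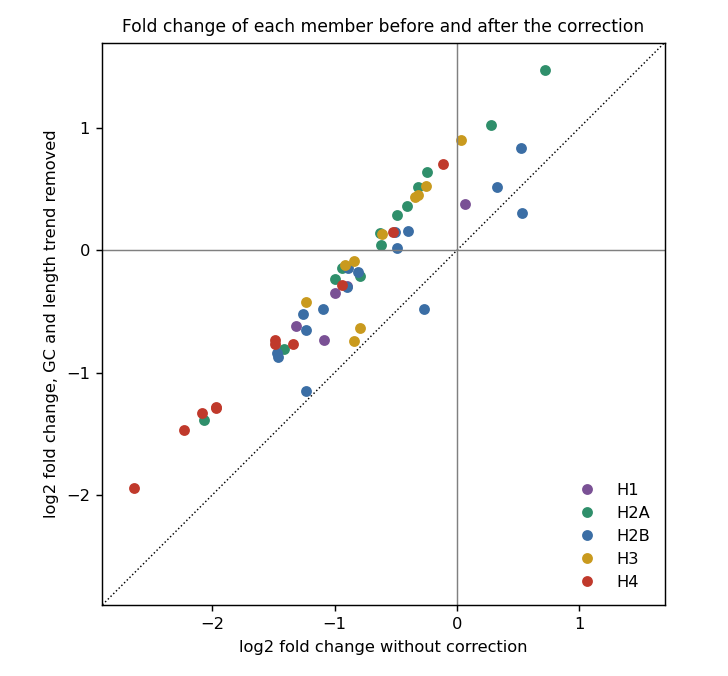
Log2 fold change of each of the 55 tested somatic members without correction (horizontal axis) and with the trend on GC content and length removed (vertical axis), coloured by class, with the line of equality dotted. Most points lie above the dotted line, the H4 genes have a median of -0.77 after the correction, and those of H2A and H3 are 0.14 and 0.03.

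Falls were called in every alternative fit, these corrections included, for 22 somatic members, namely 4 H1, 2 H2A, 6 H2B, 2 H3 and 8 H4 genes. Hist1h2ak and Hist2h2bb were called higher in every alternative fit. The plot of fold changes by gene gives the 55 tested members with their standard errors.

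**Figure D4:**
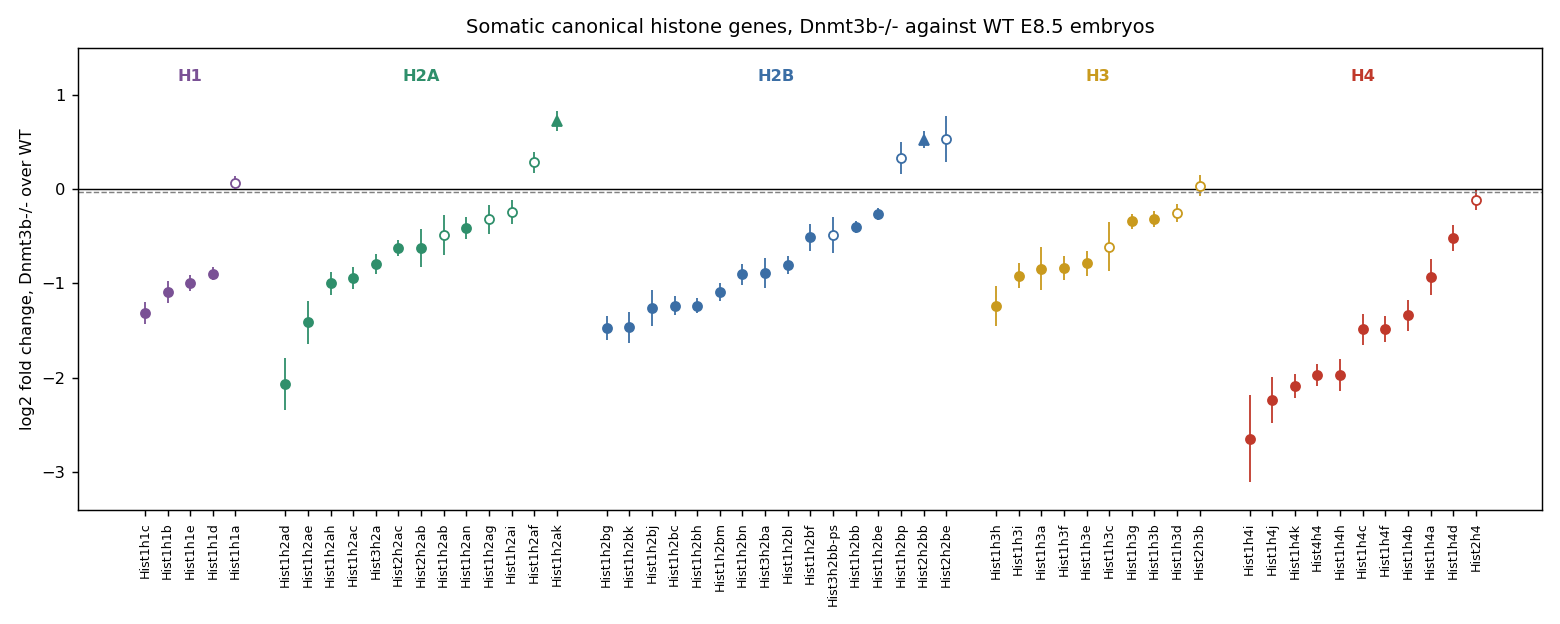
Change of each of the 55 tested somatic members between Dnmt3b-/- and WT embryos on the log2 scale, grouped by class and ordered within it, with standard errors. Filled circles passed the test as lower, triangles as higher and open circles did not pass, and the dashed line is the median of all tested genes at -0.03. H4 genes reach -2.64, and each class has at least 1 member that did not fall.

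The H4 genes had the lowest median log2 fold change of the 5 classes, -1.49. Of 11 tested H4 genes, 10 fell, 8 of them by more than 2-fold. The summed level of the class was 7072, 6755 and 7868 FPKM in WT and 3941, 3335 and 2891 FPKM in Dnmt3b-/- embryos, with no overlap. FPKM divides by the whole exonic length, but the 6 members whose 75-base stretches all occur elsewhere had 0 counts in every embryo. Levels, class sums and shares here and below therefore depend on how much of each gene is unshared, and ranks by level are ranks by FPKM.

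Hist1h4d was the H4 gene with the highest level, at 2224 ± 296 FPKM in WT and 1552 ± 257 FPKM in Dnmt3b-/- embryos (SD, n = 3). Its normalized counts were 40573, 38753 and 49418 in WT and 35169, 29349 and 25321 in Dnmt3b-/- embryos (log2 fold change -0.52 ± 0.13 SE, adjusted p = 0.0181). This call was lost without WT embryo 3 or Dnmt3b-/- embryo 2 or 3, with adjusted p up to 0.0737, and the correction for GC content and length turned the value to 0.15 (adjusted p = 0.296). Its share of the summed H4 level was 29.7, 29.7 and 32.6% in WT and 46.2, 45.6 and 45.4% in Dnmt3b-/- embryos, higher in every Dnmt3b-/- embryo.

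Hist1h4h fell from 18556, 16663 and 17607 to 5729, 4304 and 3459 normalized counts (3.91-fold, adjusted p = 0.000431). Hist1h4k, named outside the rule for naming genes and with its values known, fell from 14946, 15813 and 16875 to 4346, 3789.9 and 3059 (4.25-fold, adjusted p = 0.000239). Hist4h4, the lone gene on chromosome 6, fell from 7446, 6451 and 7259.7 to 1981, 1936 and 1481 (3.92-fold, adjusted p = 0.000239). The highest Dnmt3b-/- embryo lay far below the lowest WT embryo in each of these genes, and Hist4h4 shares no 75-base stretch with another place of the genome. With the correction the 3 genes stayed lower at log2 fold changes of -1.29, -1.33 and -1.28.

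Hist1h4a fell 1.91-fold, from 14851, 12144 and 18619 to 10029.5, 7239 and 6552 normalized counts (adjusted p = 0.00650), and lost this call with the correction (log2 fold change -0.28, adjusted p = 0.199). Hist1h4i had the lowest log2 fold change of the tested members, -2.64 ± 0.46 SE (adjusted p = 0.00355). Its normalized counts were 1518, 1298 and 4539 in WT and 484, 339.7 and 351 in Dnmt3b-/- embryos. WT embryo 3 stood above the other WT embryos, and without it the log2 fold change was -1.85. Hist2h4, the H4 gene of the Hist2 cluster, had 6456, 5376 and 6600 normalized counts in WT and 5176, 5612 and 6246 in Dnmt3b-/- embryos. The groups overlapped (log2 fold change -0.11 ± 0.10 SE, adjusted p = 0.423), and with the correction Hist2h4 was called higher at 0.70 (adjusted p = 0.0138).

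Of the H4 promoters, those of Hist1h4a, Hist1h4c and Hist1h4d hold a CCAAT box, and these genes had log2 fold changes of -0.94, -1.49 and -0.52. The 7 tested H4 genes whose promoter holds none ranged from -2.64 to -1.34. Hist2h4, the tested H4 gene that did not fall (-0.11), had no promoter sequence and is missing from this split. This split was noticed after the values were seen and was not tested.

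Of the 5 H1 genes, which encode somatic linker histone subtypes, 4 fell and 1 did not pass the test. The summed H1 level was 3768, 3643 and 3886 FPKM in WT and 2472, 2387 and 2222 FPKM in Dnmt3b-/- embryos, which do not overlap. Hist1h1e, at 1081 ± 60.6 FPKM in WT embryos, fell from 41650.5, 37947 and 42092 to 22171, 20299 and 18654 normalized counts (1.99-fold, adjusted p = 0.000431). Hist1h1d fell 1.86-fold, from 30089, 31162 and 31202 to 17751, 16470.5 and 15474 (adjusted p = 0.000414). Hist1h1c had the largest fall of the class, 2.48-fold from 16165, 17410.4 and 15038 to 7454, 6664 and 5443 (adjusted p = 0.000491). Hist1h1b fell as well, and all 4 stayed lower with the correction, at log2 fold changes of -0.73 to -0.29.

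Hist1h1a was the H1 gene that did not fall. It had 33333, 31035 and 34064 normalized counts in WT and 33953, 35023 and 34261 in Dnmt3b-/- embryos, which overlap (log2 fold change 0.07 ± 0.07 SE, adjusted p = 0.448). It was the H1 gene with the highest level in Dnmt3b-/- embryos, at 962 ± 15.4 FPKM, and its share of the summed H1 level was 23.8 to 24.7% in WT and 38.4 to 43.1% in Dnmt3b-/- embryos. With the correction it was called higher at 0.38 (adjusted p = 0.0139), and with scaling to total counts its log2 fold change was -0.0087.

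Among the 13 tested H2A genes, 8 fell, 1 rose and 4 did not pass, with a median log2 fold change of -0.62. The summed H2A level was 2257, 2121 and 1834 FPKM in WT and 1865, 1772 and 1836 FPKM in Dnmt3b-/- embryos, and H2A was the class whose sums overlapped. Hist1h2ak, the H2A gene with the highest mean FPKM over the 6 embryos, rose from 12018, 9902 and 10419.9 to 16338, 17093 and 19949.5 normalized counts (1.65-fold, adjusted p = 0.00168). Every Dnmt3b-/- embryo lay above every WT embryo, and its share of the summed H2A level was 18.1 to 22.1% in WT and 34.1 to 42.2% in Dnmt3b-/- embryos. With the correction its log2 fold change was 1.48.

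Hist1h2ai was second in mean FPKM over the 6 embryos, but 76.2% of its 75-base stretches occur elsewhere, against 18.6% for Hist1h2ak. Their order by FPKM is therefore uncertain. Hist1h2ai had 6831, 6244 and 4831 normalized counts in WT and 5338, 5104 and 4686 in Dnmt3b-/- embryos and did not pass the test (adjusted p = 0.163). With the correction its log2 fold change of -0.24 became 0.64 (adjusted p = 0.00471). Hist3h2a, of the Hist3 cluster, fell from 6584, 7904 and 6959 to 4669.7, 4039 and 3684 (1.73-fold, adjusted p = 0.00135), and lost its call with the correction (adjusted p = 0.102). Hist1h2ad had the largest fall of the class, from 471, 430.3 and 279.6 to 121, 80.3 and 79.1 normalized counts (log2 fold change -2.07 ± 0.27 SE, adjusted p = 0.00128), at a low level of 15.3 ± 3.92 FPKM in WT embryos. It stayed lower with the correction (adjusted p = 0.00562).

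Both tested H2A genes of Hist2 were lower, Hist2h2ac from 5487, 5296 and 5689 to 3812, 3674 and 3181 normalized counts (1.54-fold, adjusted p = 0.00126) and Hist2h2ab from 399, 350.2 and 259 to 217, 214 and 224 (1.54-fold, adjusted p = 0.0392). Neither was called with the correction, with log2 fold changes of 0.14 and 0.05. The Hist2h2ab call was also lost in 5 of 6 fits that left out 1 embryo, with adjusted p up to 0.164, and held only without WT embryo 3.

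The H2B class held 16 tested genes, of which 12 fell, 1 rose and 3 did not pass, with a median log2 fold change of -0.85. The summed H2B level was 5655, 5296 and 5580.1 FPKM in WT and 4308, 4335 and 4193 FPKM in Dnmt3b-/- embryos, which do not overlap. Hist2h2bb had the highest FPKM, and it rose from 36616, 32661 and 39599 to 47853, 54394 and 54189 normalized counts (1.44-fold, adjusted p = 0.00342). Its share of the summed H2B level was 26.1 to 30.0% in WT and 46.9 to 54.6% in Dnmt3b-/- embryos. It shares no 75-base stretch with another place of the genome. Of the H2B genes this holds for Hist2h2bb and Hist2h2be, whose summed counts were 144% of WT in Dnmt3b-/- embryos. Nearly all of this sum is Hist2h2bb, with mean normalized counts of 36292 in WT and 52145 in Dnmt3b-/- embryos against 95.8 and 139 for Hist2h2be. Of the 75-base stretches of Hist1h2bg, described below, 66.2% occur elsewhere, so that the order of H2B genes by FPKM is uncertain.

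Hist1h2bn fell 1.87-fold, from 15807, 14713 and 13051 to 8796, 7697 and 6823 normalized counts (adjusted p = 0.000997). Hist1h2bb fell 1.32-fold, from 14726, 13989 and 15148 to 10904, 10956 and 11383 (adjusted p = 0.00270), and had a log2 fold change of 0.16 with the correction (adjusted p = 0.315). Hist1h2bg had the lowest log2 fold change of the class, -1.47 ± 0.13 SE, and fell from 12831, 12489.6 and 13234 to 5599.5, 4499.5 and 3794 (adjusted p = 0.000478). It stayed lower with the correction (log2 fold change -0.84, adjusted p = 0.000612). Hist3h2ba of Hist3 fell 1.85-fold, from 1340.1, 1462 and 1013 to 716, 751 and 595 (adjusted p = 0.00402), without a call after the correction (adjusted p = 0.534).

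Other H2B genes outside Hist1 did not pass the test. Hist2h2be, which had no stem-loop match, had 103, 75.5 and 108 normalized counts in WT and 135, 149 and 133 in Dnmt3b-/- embryos. These do not overlap (log2 fold change 0.53 ± 0.24 SE, adjusted p = 0.123). The pseudogene Hist3h2bb-ps had 587, 539 and 369.6 in WT and 334, 344 and 389 in Dnmt3b-/- embryos, which overlap (adjusted p = 0.0821).

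In the H3 class 7 of 10 tested genes fell and 3 did not pass, with a median log2 fold change of -0.70. The summed H3 level was 3039, 2730.5 and 2440.3 FPKM in WT and 2141, 1846 and 1840.4 FPKM in Dnmt3b-/- embryos, which do not overlap. The 3 genes with the highest levels had small differences. Hist1h3g fell from 12349.7, 12674 and 13319.9 to 10937, 9919 and 9399 normalized counts (1.27-fold, adjusted p = 0.0106). Hist1h3b fell 1.25-fold, from 8338, 7429 and 7834 to 6893, 6062 and 5986 (adjusted p = 0.0177). Hist1h3d had 6817, 7085 and 7960 in WT and 6857, 5615 and 5907 in Dnmt3b-/- embryos and did not pass (adjusted p = 0.0760). With the correction the log2 fold changes of these 3 genes were 0.44, 0.45 and 0.53, all called higher. The calls of Hist1h3g and Hist1h3b were lost without Dnmt3b-/- embryo 2, and that of Hist1h3b also without WT embryo 1 or Dnmt3b-/- embryo 3, with adjusted p up to 0.0528 and 0.0798.

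Hist1h3h had the lowest log2 fold change of the class and fell from 2608, 2059 and 1342 to 909.8, 807 and 830.3 normalized counts (2.36-fold, adjusted p = 0.00347), and it lost its call with the correction (adjusted p = 0.158). Hist2h3b of the Hist2 cluster had 6313, 4648 and 5847 normalized counts in WT and 6169, 5468 and 5603 in Dnmt3b-/- embryos, which overlap (log2 fold change 0.04 ± 0.11 SE, adjusted p = 0.829). Its direction turned with scaling to total counts and without WT embryo 2 or Dnmt3b-/- embryo 1, and with the correction it was called higher at 0.91 (adjusted p = 0.000858).

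**Figure D5:**
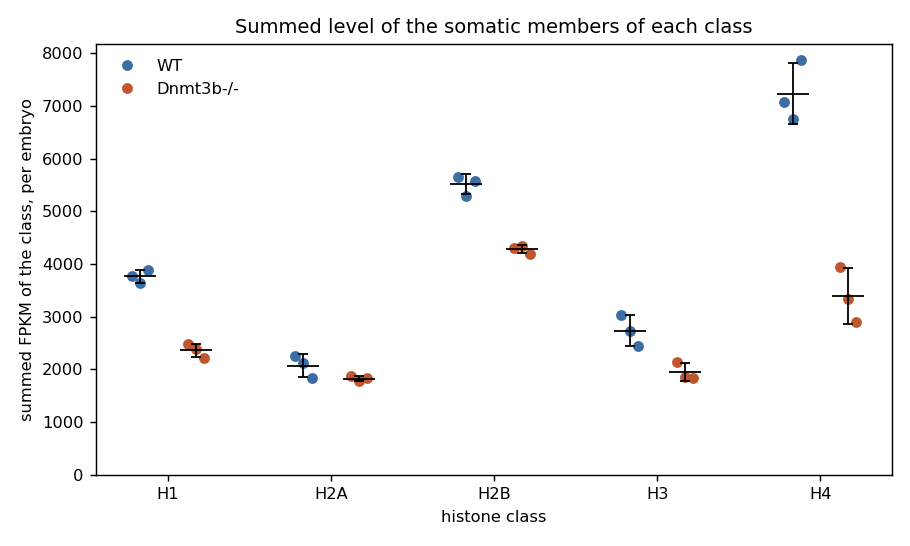
Summed FPKM of the somatic members of each histone class in each embryo, 1 point per embryo, with the mean and SD of 3 WT and 3 Dnmt3b-/- embryos as bars. The H4 sum falls to 46.9% of the WT mean and that of H1 to 62.7%, while the H2A sum overlaps between the genotypes.

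By cluster, 36 of 45 tested somatic genes of Hist1 fell and 1 rose, at a median log2 fold change of -0.92. In Hist2, 2 of 6 fell and 1 rose, at a median of -0.04. In the stretches of Hist1 on either side of a gap, 13 of 17 and 23 of 28 tested genes fell. In Hist3, 2 of 3 genes fell, at a median of -0.79. With the correction, 22 genes of Hist1 were lower and 9 higher, at a median of -0.30, and the 2 stretches held 7 lower and 4 higher and 15 lower and 5 higher. In Hist2 none was then lower and 3 were higher, at a median of 0.51, and in Hist3 none was called, at a median of -0.14. No difference between clusters was tested.

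The head-to-head arrangement of H2A and H2B genes was found in 13 pairs with 164 to 281 bases between the starts. Of 10 such pairs with both genes tested, leaving out the testis pair, both genes fell in 4, the H2A gene fell in 7 and the H2B gene fell in 7. Of all tested genes 18.1% fell. Among these 4 pairs, only Hist1h2ae and Hist1h2bg both stayed lower with the correction. Hist1h2ac, Hist1h2ah and Hist1h2bf of the other pairs lost their calls (adjusted p = 0.347, 0.175 and 0.269). In the pair of Hist1h2ak and Hist1h2bn, with 164 bases between the starts, Hist1h2ak rose 1.65-fold while Hist1h2bn fell 1.87-fold. In the pair of Hist1h2ad and Hist1h2bf the log2 fold changes were -2.07 and -0.51, and the fall of Hist1h2bf was not called without WT embryo 3, Dnmt3b-/- embryo 2 or Dnmt3b-/- embryo 3. With the correction the log2 fold change of Hist1h2bf was 0.15 and was not called (adjusted p = 0.269). Across the 10 pairs the Spearman rho of the paired fold changes was 0.24, a description over pairs from the same 6 libraries.

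Embryos of a genotype also differed among themselves. The highest WT embryo exceeded the lowest by a median of 1.26-fold and by more than 1.5-fold in 13 of 55 members, and the Dnmt3b-/- embryos by a median of 1.22-fold and by more than 1.5-fold in 6. WT embryo 3 was the lowest of its genotype in 27 members and the highest in 22. Dnmt3b-/- embryo 1 was the highest of its genotype in 44 members and Dnmt3b-/- embryo 3 the lowest in 36. Over the 55 genes, a description from the same libraries, the log2 fold change had a Spearman rho of 0.01 with GC content, of 0.31 with exonic length and of -0.15 with the WT level.

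Members that did not reach the minimum mean count numbered 10. Hist1h2ao, Hist1h2ap, Hist1h2bq, Hist1h2br, Hist1h4m, Hist2h2aa1, Hist2h2aa2, Hist2h3c1 and Hist2h3c2 were at 0 in every embryo, and at least 88.5% of their 75-base stretches occur elsewhere in the genome. Hist1h4n had 7, 8 and 17 raw counts in WT and 4, 1 and 1 in Dnmt3b-/- embryos, and 90.4% of its stretches occur elsewhere. A count of 0 in these genes therefore cannot be read as absence of transcript. Among tested somatic members a median of 44.8% of the stretches occur elsewhere. Since the 6 members with every stretch elsewhere were at 0, reads of near-identical copies appear to be mostly missing from the counts. The counts of tested members then reflect mostly their unshared part. Of 33 members sharing at most 50% of their stretches, 25 fell and 2 rose, at a median log2 fold change of -0.89. Of the 6 sharing none, 2 fell and 1 rose, at a median of -0.02. With the correction these numbered 17 lower and 4 higher of the 33, and 2 lower and 3 higher of the 6.

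Genes that make and handle histone RNA and protein were called in both directions. Of 31 genes for histone transcription, RNA processing and chaperoning, 8 fell and 8 rose, with a median log2 fold change of 0.06, where 18.1% and 17.6% of all tested genes did. With the correction 4 were lower and 4 higher, where 10.8% and 12.6% of all genes were. Those called lower numbered 4 without WT embryo 1, WT embryo 3 or Dnmt3b-/- embryo 2, 5 without Dnmt3b-/- embryo 1 or 3 and 6 without WT embryo 2, and those called higher 7 to 10. Nasp, a chaperone that binds free histones, had the highest count and the largest rise, from 41982, 43827 and 42616 to 60586, 76744 and 91638 normalized counts (log2 fold change 0.83, adjusted p = 0.00245). Sympk, a scaffold of the complex that cuts the histone RNA 3′ end, fell most (log2 fold change -1.003, adjusted p = 0.000836). Chosen after their values were seen, Slbp, which binds the stem-loop, Npat, which activates histone genes, and Casp8ap2, which takes part in making histone RNA, rose with log2 fold changes of 0.41, 0.45 and 0.49 (adjusted p = 0.00396, 0.0115 and 0.00437). With the correction these 3 were at 0.25, 0.07 and 0.12, and none was called (adjusted p = 0.0539, 0.648 and 0.324).

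Of 47 S phase genes, 14 fell and 14 rose, with a median log2 fold change of -0.02, where 18.1% of all tested genes fell and 17.6% rose. With the correction 7 were lower and 5 higher, where 10.8% and 12.6% of all genes were. Leaving out 1 embryo gave 10 to 14 lower and 6 to 14 higher, with 6 higher without Dnmt3b-/- embryo 2, 7 without WT embryo 1 and 9 without WT embryo 2. Their summed level was 2949 to 3085 FPKM in WT and 3022 to 3180 FPKM in Dnmt3b-/- embryos, which overlap. Uhrf1, which brings DNMT1 to replicated DNA and had the highest mean count over the 6 embryos, rose (log2 fold change 0.54, adjusted p = 0.00104). Ccne2, a cyclin of S phase entry, rose most (0.75, adjusted p = 0.00231), but was not called with the correction (adjusted p = 0.281). Pold1, the catalytic subunit of a replicative polymerase, fell most (-1.04, adjusted p = 0.000718). Of 24 G2 and M phase genes, 3 fell and 10 rose, with a median of 0.17. With the correction 4 were lower and 4 higher, at a median of 0.06, and leaving out 1 embryo gave 2 to 4 lower and 7 to 10 higher. Top2a, a topoisomerase with the highest count of the list, had a log2 fold change of -0.02 and did not pass (adjusted p = 0.854), but with the correction it was called lower at -0.30 (adjusted p = 0.0134). Tpx2, a spindle factor, rose most (0.58, adjusted p = 0.00217), and Cdc20, an activator of the anaphase-promoting complex, fell most (-0.98, adjusted p = 0.000491).

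The replacement histone genes are transcribed outside S phase as well, and most of their transcripts carry a poly(A) tail. Of 11, 5 fell and 6 did not pass in edgeR's test, while DESeq2 called 1 higher, with a median log2 fold change of -0.18. With the correction 5 were lower and 1 higher. H3f3b, a gene for H3.3, had the highest count and did not pass (log2 fold change 0.09, adjusted p = 0.321), but with the correction it was called lower at -0.29 (adjusted p = 0.0148). H2afx, whose protein marks DNA breaks when phosphorylated, fell most (-1.06, adjusted p = 0.000688), and its transcript can end either in a stem-loop or in a poly(A) tail.

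Other RNAs without a poly(A) tail were examined beside the histone genes. Of 4 tested, 3 fell and 1 rose, at a median log2 fold change of -2.21, where 18.1% of all tested genes fell and 17.6% rose. With the correction 3 were lower and none higher, at a median of -1.28, where 10.8% and 12.6% of all genes were. Rpph1, the RNA of RNase P, had 267824, 236681 and 103733 normalized counts in WT and 48991, 52349.8 and 32954 in Dnmt3b-/- embryos (4.53-fold lower, adjusted p = 0.00204). Rmrp, the RNA of RNase MRP, fell most, from 67820.3, 43857 and 22121 to 8382, 7938 and 6353 normalized counts (5.90-fold, adjusted p = 0.00143). Both genes were lowest in WT embryo 3 among the WT embryos and did not overlap between the genotypes. Malat1, a nuclear RNA whose 3′ end folds into a triple helix, rose (log2 fold change 0.38, adjusted p = 0.0193), but was not called with the correction (adjusted p = 0.549) or without Dnmt3b-/- embryo 1 or 2. The part of RNA without a poly(A) tail in the falls of the histone genes was not tested.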

How the data were processed

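RNA-Seq libraries of 6 whole E8.5 embryos, 3 WT and 3 Dnmt3b-/-, were analysed. Each is a separate embryo. The methylation libraries of the series were not analysed here. The authors sequenced ribosomal RNA-depleted total RNA as pairs of 75-base reads, aligned them to mm10 with TopHat2 (2.0.12) and deposited raw counts per RefSeq gene from HTSeq (0.6.0). The strand setting and the RefSeq release are not given in the sources used here. The deposited table also holds a normalized signal per embryo (counts divided by DESeq2 1.4.5 size factors by the authors), which was not used. It further holds the authors' own log2 fold changes and adjusted p-values, also not used.

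The raw counts were scaled by TMM and tested with edgeR (4.0.16) in R (4.3.3), by its quasi-likelihood test over the 15114 genes whose counts averaged 10 or more, with Benjamini-Hochberg adjustment and a threshold of 0.05. FPKM used exonic lengths from RefSeq (GRCm38.p6), where 99.2% of gene names matched. The libraries held 41489332 to 58470286 counts, so that 0 counts allow up to 3 counts, or 2.37 to 3.49 normalized counts. GC content and length were corrected per library by natural splines with 5 degrees of freedom each. Alternatives were other scalings, DESeq2 (1.42.0), limma (3.58.1) on log2 values with pseudocounts of 1 and 0.1, other count minimums, a replicate block, GC and length corrections and leaving out each embryo. Code was tested on simulated data.

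The members and gene lists were chosen with earlier results of these data known. Genes were named by rule: the testis genes, in each class the 3 with the highest level and those with the lowest and highest log2 fold change, those called higher, and the tested genes of Hist2, Hist3 and Hist4. Other members, such as Hist1h4k, Hist1h1b, Hist1h4c and Hist1h2bf, were named outside this rule with their values known. Of every other list, the gene with the highest count and the called genes that changed most each way were named.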

Additional observations from a re-analysis of the deposited data

How the results depend on the processing

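Of 41 somatic histone genes that fell, all 41 kept the call without a filter, at a mean of at least 50 counts, with DESeq2, with limma at either pseudocount and under 3 other scalings. Corrections changed more. The genes called lower numbered 23 with the GC and length correction, 25 with GC alone and 23 with both fitted without the members and untailed RNAs, and those called higher 12, 11 and 11, or 5 with length alone. The median log2 fold change went from -0.84 to -0.21, -0.26 and -0.21. Above 2-fold, 20 fell and 0 rose. Of the 33 members sharing at most 50% of their 75-base stretches, 25 fell without a fold limit and 13 by more than 2-fold. At a mean of at least 50 counts no testis gene was called higher (0 calls), since Hist1h2aa and Hist1h2ba did not reach this mean and were not tested. Histone supply genes called lower went from 8 to 4, 3, 5 and 4 (GC and length, GC alone, length alone, fitted without the members) and called higher from 8 to 4 and 5 and 4 (without length alone). S phase genes called lower went from 14 to 7, 6, 8 and 7 and called higher from 14 to 5, 6 and 5, or 8 with scaling to total counts. G2 and M phase genes called higher went from 10 to 4, 6 and 4, replacement histone genes called higher from 0 to 1 with each correction and with DESeq2, and untailed RNAs called higher from 1 to 0 with 3 corrections. Above 2-fold, 1 supply gene, 1 S phase gene and 2 replacement genes fell, no G2 and M phase gene fell (0), and 0 rose in any of these lists. Summed counts over members that share no 75-base stretch were 84.3% of WT for H1, 144% for H2B, nearly all from Hist2h2bb, and 56.7% for H4. The whole H2B class was at 73.3% of WT with total counts, which moved the median of all genes to -0.11.

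Leaving out 1 embryo gave 33 to 43 somatic genes called lower and 2 called higher, with medians of -0.91 to -0.78. It gave 2 testis genes higher, both of which reached the minimum count only through the Dnmt3b-/- embryos, so that these calls had to come. It also gave 4 to 6 supply genes lower and 7 to 10 higher, 10 to 14 S phase genes lower and 6 to 14 higher, 2 to 4 G2 and M phase genes lower and 7 to 10 higher, 4 to 6 replacement genes lower and 0 to 1 higher, and 3 untailed RNAs lower and 0 to 1 higher. Class sums were 60.9 to 64.2% of WT for H1, 84.5 to 93.5% for H2A, 75.9 to 78.2% for H2B, 65.7 to 73.5% for H3 and 42.7 to 49.98% for H4. Calls were lost for Hist1h2an, Hist1h2be, Hist1h2bf, Hist1h3a, Hist1h3b, Hist1h3g, Hist1h4d and Hist2h2ab, in each case also without Dnmt3b-/- embryo 2 (33 of 41 kept).

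Direction reversed for Hist1h1a (-0.0087, total counts) and for Hist2h3b (-0.041 with total counts, -0.082 without WT embryo 2, -0.0042 without Dnmt3b-/- embryo 1). With GC and length, GC alone and the fit without the members, log2 fold changes were 0.64, 0.56 and 0.61 for Hist1h2ai, 0.16, 0.095 and 0.155 for Hist1h2bb, 0.45, 0.39 and 0.44 for Hist1h3b, 0.53, 0.47 and 0.52 for Hist1h3d, 0.44, 0.38 and 0.43 for Hist1h3g, 0.15, 0.062 and 0.15 for Hist1h4d, 0.14, 0.076 and 0.13 for Hist2h2ac, and 0.70, 0.60 and 0.69 for Hist2h4 (0.14 with length alone). Hist2h2ab was at 0.047 and 0.042 and Hist3h2bb-ps at 0.021 and 0.019 with the first and the last. The cause was not tested.

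Same-numbered WT and Dnmt3b-/- embryos did not deviate together (correlations of -0.05, -0.15 and -0.01), and differently numbered ones gave -0.08 to 0.14. The values were centred within each genotype and the embryos are few, so that this check showed no pairing by number but cannot exclude it. With a replicate block, 40 of the 41 somatic genes kept the call, supply genes called lower numbered 4 and S phase genes called higher 9.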
